A study of Mus musculus with 4 samples.

Results

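CTCF summits lay close to both the start and the end of 648 autosomal protein-coding genes, out of 16044 such genes of at least 5 kb, which is 4.04% of them. A gene entered this set when 1 summit, the base of strongest signal in a CTCF peak, lay within 1 kb of one annotated end and another summit within 1 kb of the other end. A summit at exactly 1 end was found for 6436 genes (40.1%), and 8960 genes (55.8%) had a summit at neither end. The peaks came from chromatin immunoprecipitation and sequencing (ChIP-seq) of CTCF in unsorted testes of B6xCAST F1 mice, the hybrid offspring of those strains. The series holds 2 immunoprecipitated samples and 2 inputs, all labelled as testes, with no treatment and no age or genotype beyond the cross. A peak list of the type used here has no expression values, so the tissue label was not checked against marker genes, and the signal of germ cells and somatic cells cannot be told apart. A single merged list of 51871 peaks was used, so no value has a spread between mice and the sequencing depth behind it is unknown. Because the summits chose the genes, the strength, width and number of their peaks are given as descriptions with no test.

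CTCF is a zinc-finger protein that binds a long, directional DNA motif. It halts the cohesin ring as cohesin extrudes chromatin loops, and loops are known to form mostly between sites whose motifs point towards each other. Binding at promoters is common, and many promoter sites lie in CpG-rich DNA. At the clustered protocadherin genes, CTCF sites beside the alternative promoters and the enhancers are known to take part in promoter choice in neurons. Throughout, fold means the authors' own fold enrichment of a peak at its summit over background, read only within this list, whose median fold was 6.82.

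The sequences below are the 300 bp promoter windows of 6 genes with a strong peak at each end, shown so that the DNA under the start summit can be read beside its fold. Acin1, which encodes a nuclear protein that associates with spliced RNA, was taken from the 10 genes strongest at their weaker end, of which only 3 had a known strand, and among those 3 its start summit alone lay in such a window. The other 5 were chosen after their values were seen, as the next genes by the weaker end with a CTCF core word within 50 bp of the start summit. The core was searched as 4 words of 7 letters on both strands, namely AGAGGGC, followed by AGATGGC, then also AGGGGGC and, last of these, AGGTGGC, each with its reverse complement. Of all 32851 promoter windows, 27.6% held at least 1 of these words. Capitals mark a word, and a match is a string of letters, not a proven site.
Acin1: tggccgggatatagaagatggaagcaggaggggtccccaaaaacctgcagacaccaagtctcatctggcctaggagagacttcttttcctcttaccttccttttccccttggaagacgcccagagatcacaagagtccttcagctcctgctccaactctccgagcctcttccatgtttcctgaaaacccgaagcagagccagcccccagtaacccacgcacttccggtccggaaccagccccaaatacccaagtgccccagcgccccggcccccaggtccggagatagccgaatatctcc
Smim1: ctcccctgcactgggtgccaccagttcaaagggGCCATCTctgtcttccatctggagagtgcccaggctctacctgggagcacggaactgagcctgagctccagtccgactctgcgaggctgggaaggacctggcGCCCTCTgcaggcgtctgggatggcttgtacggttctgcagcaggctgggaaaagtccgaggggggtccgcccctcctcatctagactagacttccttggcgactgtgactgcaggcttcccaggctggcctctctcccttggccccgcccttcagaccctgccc
Trmu: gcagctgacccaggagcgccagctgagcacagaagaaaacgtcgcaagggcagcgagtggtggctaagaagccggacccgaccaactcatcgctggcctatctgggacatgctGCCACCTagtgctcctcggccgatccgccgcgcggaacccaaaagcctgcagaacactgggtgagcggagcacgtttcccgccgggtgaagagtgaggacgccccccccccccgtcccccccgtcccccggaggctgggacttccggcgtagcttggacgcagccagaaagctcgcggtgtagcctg
Rhpn2: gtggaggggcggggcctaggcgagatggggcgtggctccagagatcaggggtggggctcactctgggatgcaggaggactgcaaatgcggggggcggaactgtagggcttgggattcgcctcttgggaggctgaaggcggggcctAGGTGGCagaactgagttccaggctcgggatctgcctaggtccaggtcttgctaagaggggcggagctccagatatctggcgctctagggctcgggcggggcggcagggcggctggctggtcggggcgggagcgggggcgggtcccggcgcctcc
Mvk: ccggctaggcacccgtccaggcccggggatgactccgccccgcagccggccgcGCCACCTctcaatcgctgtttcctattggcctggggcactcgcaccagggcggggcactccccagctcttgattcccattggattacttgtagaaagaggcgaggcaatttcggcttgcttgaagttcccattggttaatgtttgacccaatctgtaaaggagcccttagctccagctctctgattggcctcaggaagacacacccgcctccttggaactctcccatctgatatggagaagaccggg
Jpt2: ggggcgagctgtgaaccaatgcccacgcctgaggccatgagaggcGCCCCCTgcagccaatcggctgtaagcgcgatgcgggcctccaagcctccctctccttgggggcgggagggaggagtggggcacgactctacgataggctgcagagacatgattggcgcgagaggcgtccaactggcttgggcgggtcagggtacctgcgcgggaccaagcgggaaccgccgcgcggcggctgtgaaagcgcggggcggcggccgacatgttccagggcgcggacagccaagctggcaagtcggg
All 6 are RefSeq sequences of GRCm38.p6, written 5′ to 3′ on the strand of the gene and running from 250 bp before the start to 50 bp after it. Acin1 is chr14:54686916-54687215 on the minus strand, Smim1 chr4:154025995-154026294 on the minus strand and Trmu chr15:85879077-85879376 on the plus strand. Rhpn2 is chr7:35333987-35334286 on the plus strand, Mvk chr5:114444019-114444318 on the plus strand and Jpt2 chr17:24960574-24960873 on the minus strand. In Rhpn2, the centre of a sense AGGTGGC lay 1 bp from the summit. In Smim1, a small membrane protein gene, an antisense GCCCTCT lay 3 bp from the summit and a second word, GCCATCT, 105 bp from it. The single antisense words of Jpt2, of Trmu (a tRNA-modifying enzyme of mitochondria) and of Mvk (mevalonate kinase of sterol synthesis) lay 24, 26 and 40 bp from their summits. The Acin1 window held no core word although its start peak had a fold of 18.8, the highest start fold among the 504 genes with a known strand. These letters are simply not in that window, and a full motif model was not used here.

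Acin1 had the strongest pair by its weaker peak. The gene covers chr14:54642161-54686965, with a summit of fold 18.8 lying 141 bp upstream of the start and 1 of fold 16.8 lying 265 bp past the end. A second start summit had a fold of 4.12, and 5 summits of fold 4.67 to 12.4 lay between the end windows. Iqcn, an IQ-motif protein gene at chr8:70701321-70717650, had folds of 17.2 at its start and 12.4 at its end, with no summit between the end windows. Dtx4, a Deltex ubiquitin ligase gene at chr19:12466329-12502179, had folds of 16.8 at its lower-coordinate end and 12.2 at its upper end, with 2 summits between. Lrrc45, a gene for a centrosome linker protein, had 15.4 at its start and 11.3 at its end. Mmp17, a membrane-type matrix metalloprotease gene, had 11.2 and 11.4. A further 4 of the first 10 genes belong to the protocadherin locus described further on. Ranking by the weaker end favours pairs of like height.

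**Figure D1:**
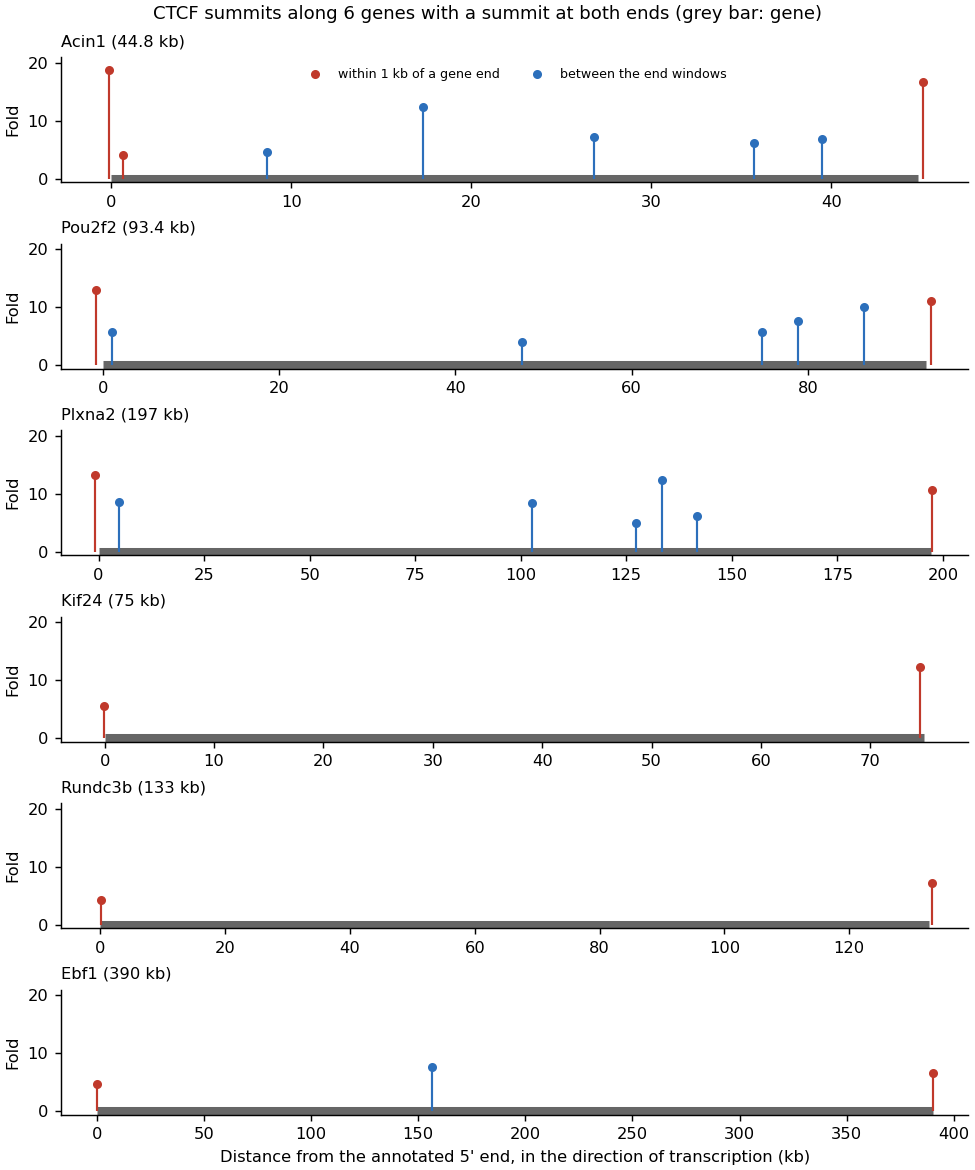
CTCF summits along 6 genes, placed by distance in kb from the annotated 5' end (x axis) and by fold enrichment (y axis, ratio over background), with red for summits within 1 kb of a gene end, blue for summits between the end windows and a grey bar for the gene. Acin1, Pou2f2 and Plxna2 had 5 summits each between their ends, Kif24 and Rundc3b had none, and Ebf1 had 1 in 390 kb.

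Most pairs were less even. Over all 648 genes the weaker peak had a median fold of 4.67 and the stronger a median of 8.79. Both peaks reached a fold of 5 in 267 genes (41.2%) and a fold of 10 in 28 genes (4.32%), whereas neither reached 5 in 64 genes (9.88%). Beyond the first 10, the genes with both peaks above 10, named after their values were seen, included Clcn2 (a chloride channel, 17.6 and 10.95). Others were Pou2f2 (a POU-domain transcription factor, 13.0 and 11.1), Plxna2 (a semaphorin receptor, 13.3 and 10.6) and Cd63 (a tetraspanin, 14.5 and 10.5). Pkm, the pyruvate kinase gene, had 10.95 at its start and 14.5 at its end, but 3.09 at its weaker end when the summit nearest to each end was used. At the other extreme, Usp3, a gene for a histone deubiquitinase, had a fold of 1.39 at its start and 12.5 at its end. Rhof, a small GTPase gene, had 2.86 at its start and 17.2 at its end. The opposite imbalance was seen in Pgap6, with 12.4 at its start and 2.70 at its end, and in Greb1, with 11.01 and 2.45. Lrch4 had the strongest end peak of all, at a fold of 21.2, beside a start peak of 4.98. Usp3, Rhof, Pgap6, Greb1 and Lrch4 were also chosen after their values were seen.

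The end peak was more often the higher of the pair. Strand was taken from the promoter table for 504 of the 648 genes, and among these the start peak had a median fold of 5.43 (quartiles 4.01 and 7.85) and the end peak 7.36 (quartiles 4.97 and 9.93). The end peak was higher in 325 genes (64.5%, exact 95% interval 60.1 to 68.7, counting error only) and the start peak in 178 (35.3%). The median ratio of end to start fold was 1.29. Start peaks were a median of 555 bp wide and end peaks 631 bp, with a median −log10 q, the authors' false discovery measure, of 19.4 and 37.5. Much the same levels were seen where only 1 end was occupied: the start peak of 4540 genes with a summit at the start only had a median fold of 5.36, and the end peak of 625 genes with one at the end only had 7.15. The heights of the paired peaks hardly varied together over the genes (Pearson's r 0.030, Spearman's rho 0.0064, 504 genes of 1 peak list, given as a description). The end peak was higher in 227 of the 334 genes (68.0%) with no other coding gene ending or starting within 1 kb of their end, at medians of 7.64 for the end and 5.41 for the start. Where such a neighbour was present the end peak was higher in 98 of 170 genes (57.6%), at medians of 6.83 and 5.59.

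**Figure D2:**
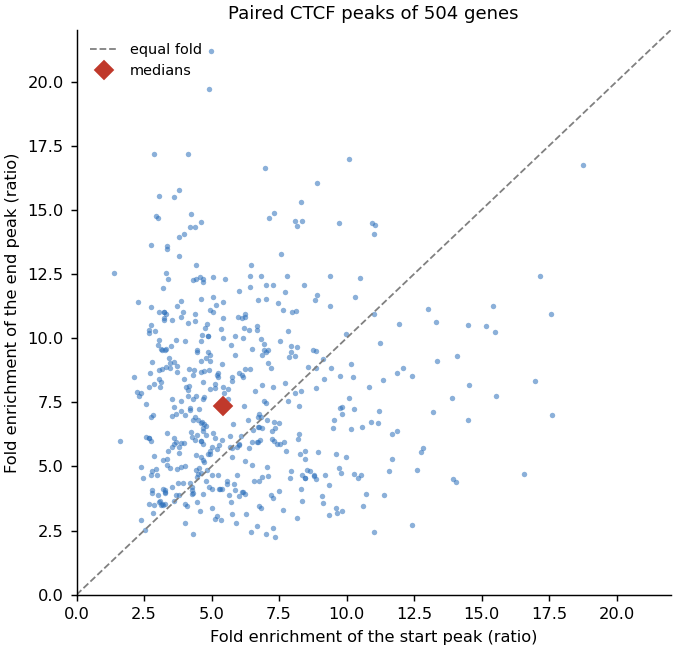
Fold enrichment of the start peak (x axis, ratio) against that of the end peak (y axis, ratio), 1 point for each of 504 genes with a known strand, with a dashed line of equal fold and a red diamond at the medians of 5.43 and 7.36. More points lie above the line (325) than below it (178), and the points show no visible slope.

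Start and end summits sat differently with respect to the gene boundary. The start summit lay a median of 12 bp upstream of the annotated start (quartiles 136 bp upstream and 200 bp downstream), and 317 of 504 (62.9%) were within 250 bp of it. The end summit lay a median of 267 bp past the annotated end (quartiles 340 bp inside the gene and 591 bp past it), and 103 (20.4%) were within 250 bp of the end. The summit lay outside the gene in 262 genes (52.0%) at the start and in 331 (65.7%) at the end. Only 9 end summits fell in the last 100 bp of the gene and 21 in the first 100 bp past it, against 108 start summits in the 100 bp before the start and 70 in the 100 bp after it. Genes with 1 occupied end had similar shares within 250 bp, 63.9% for start only and 22.2% for end only. A pair of summits within 1 kb of the same end was present in 55 of the 648 genes (8.49%), and no end had more than 2.

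**Figure D3:**
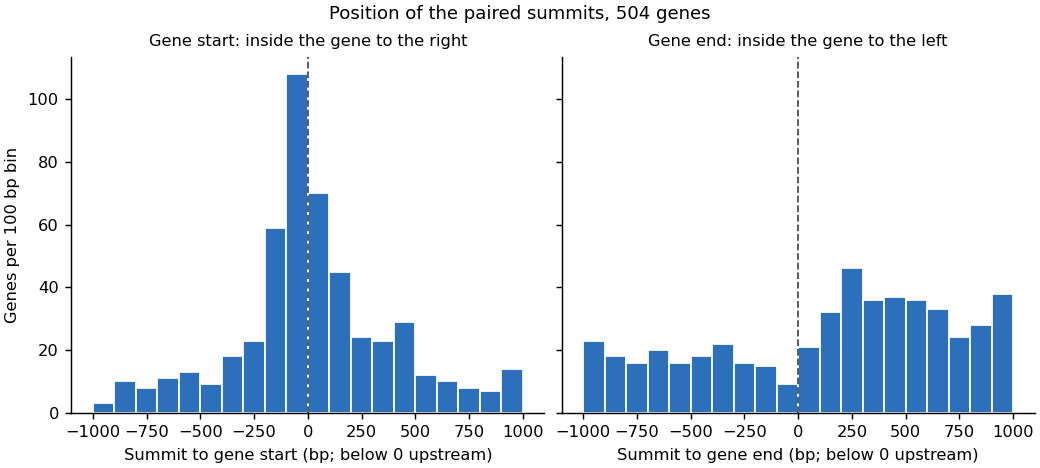
Number of genes (y axis, per bin of 100 bp) by the distance in bp from the summit to the annotated start (left panel) or end (right panel) for 504 genes, with values below 0 upstream and a dashed line at the gene boundary. Start summits peak at the boundary, with 108 genes in the bin just upstream, while end summits spread over the window with the fullest bin of 46 genes at 200 to 300 bp past the end.

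An end summit was slightly more frequent in genes with a start summit than in genes without one. Among genes with a known strand, an end summit was found for 504 of 5044 genes with a start summit (9.99%, exact 95% interval 9.18 to 10.9) and for 625 of 7730 without one (8.09%, interval 7.49 to 8.72). With no coding neighbour within 1 kb of the end, the shares were 8.06% and 7.02%. With a neighbour there they were 18.9% and 15.7%, so the presence of a neighbour went with a larger difference than the presence of a start summit did. These shares come from the summits that define the set and are given with no test.

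Genes with both ends occupied stood closer to other coding genes. Of the 648, 324 (50%) had an end of another protein-coding gene within 1 kb of one of their ends, against 25.9% of the other 15396 genes. Taken chromosome by chromosome the difference was 21.9 percentage points ± 15.8 (SD, n = 19 autosomes) and was positive on 16 of 19 (exact two-sided sign-flip permutation test over autosomes, which are the units here in place of mice, p = 4.58e-05, adjusted p = 9.16e-05 over the 4 measures tested). Against genes with exactly 1 end occupied, of which 34.6% had such a neighbour, the difference was 13.5 points and positive on 15 of 19 autosomes (same exact permutation test, p = 0.00098, not adjusted). The share was 19.7% with neither end occupied, 33.1% with the end only and 35.7% with the start only. The window that chose the genes can also hold a neighbour's own peak. The test against all other genes therefore does not single out paired ends. Leaving out the 22 protocadherin genes described further on, which overlap each other, was a choice made after the data were seen. Of the remaining 626 genes, 302 (48.2%) had such a neighbour. Their difference from the other genes was 18.7 points (same exact permutation test, adjusted p = 0.00021). Neighbours at both ends were present for 68 of the 648 genes (10.5%) and for 3.48% of the other genes. Among the 504 genes with a strand, the neighbour was at the start in 141 (28.0%) and at the end in 170 (33.7%). In 84 of these 170 the neighbour had its own start within 1 kb of the gene's end. In 61 the neighbour had only its end there, and in 25 its strand was not used.

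Of the 38 peaks that served more than 1 gene of the set, 37 served a pair, and 7 pairs of genes of the set overlapped each other. Duox1 and its maturation factor gene Duoxa1 shared a summit of fold 6.49 on chromosome 2. Clcn2 and Fam131a shared one of fold 10.95, and Mindy1 and Anxa9 one of fold 11.02 on chromosome 3. Rpp14 and Htd2, which are annotated over the same stretch of chromosome 14, shared both their summits, of fold 4.88 and 10.1. These overlapping pairs were named after their values were seen. Over the whole set 1238 distinct peaks stood for the 1296 gene ends.

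The promoters of the set were rich in CpG, as were the promoters of genes occupied at the start only. In the 462 genes with a promoter window at their start, the median ratio of observed to expected CpG was 0.804, against 0.678 in 10721 other genes. The difference per chromosome was 0.12 ± 0.047 (SD, n = 18 autosomes with windows) and was positive on 18 of 18, which is given as a description since the set was chosen to have a start summit and most other genes lack one. Against 4253 genes with a summit at the start only, whose median was 0.826, the sign turned: the difference was -0.029, lower on 12 of 18 autosomes (exact two-sided sign-flip permutation test, p = 0.028, not adjusted). Genes with a summit at the end only had a median of 0.523 and genes with none at either end 0.462.

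The share of promoter windows with a CTCF core word was similar in both groups with a start summit. A word was present in 188 of the 462 windows (40.7%), against 32.1% of the other genes' windows, a difference per chromosome of 9.52 points ± 11.2 (SD, n = 18) that was positive on 15 of 18 autosomes. This too is a description, for the same reason. Of the windows of genes occupied at the start only, 39.9% held a word, and that difference, 1.93 points, did not pass (exact two-sided sign-flip permutation test, p = 0.466, not adjusted). The shares were 29.3% with a summit at the end only and 26.8% with none at either end. The start summit itself lay inside the window in 235 of the 462 genes, and a word lay within 50 bp of it in 59 of these (25.1%, exact 95% interval 19.7 to 31.2). The word was on the strand of the gene in 34, on the opposite strand in 24 and on both in 1. The shares above are for whole windows of 300 bp, so they are no background for this 50 bp search, and none is given. The words at the end summits, and with them the orientation of each pair, were not analysed here.

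Genes occupied at both ends were shorter than the other genes pooled, and close in median length to genes occupied at the end only. Their median length was 20.5 kb (quartiles 11.4 and 48.5, range 5.03 to 889 kb) against 26.3 kb (quartiles 12.9 and 60.1) for the other genes. On the log2 scale the ratio of medians per chromosome was -0.34 ± 0.52 (SD, n = 19), lower on 16 of 19 autosomes (exact two-sided sign-flip permutation test, p = 0.0102, adjusted p = 0.0102). Against genes with exactly 1 occupied end, whose median was 27.3 kb, the ratio was -0.40 (same exact permutation test, p = 0.00509, not adjusted). The difference did not pass when only peaks with a fold of at least 5 were used (log2 ratio -0.27, adjusted p = 0.139) or only those whose −log10 q reached the list's median (-0.42, adjusted p = 0.0902, both the exact permutation test). The share of genes with both ends occupied was 4.59% at 5 to 10 kb (127 of 2765) and 5.06% at 10 to 20 kb (189 of 3732). It was 3.601% at 20 to 50 kb, 3.62% at 50 to 100 kb and 3.07% at 100 kb or more (71 of 2311). Genes with exactly 1 occupied end were mixed in length. The median was 28.3 kb for 4540 genes with a summit at the start only and 19.7 kb for 625 with one at the end only. Genes of the set with a known strand had a median of 19.2 kb, and their difference from the end-only genes was not tested.

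**Figure D4:**
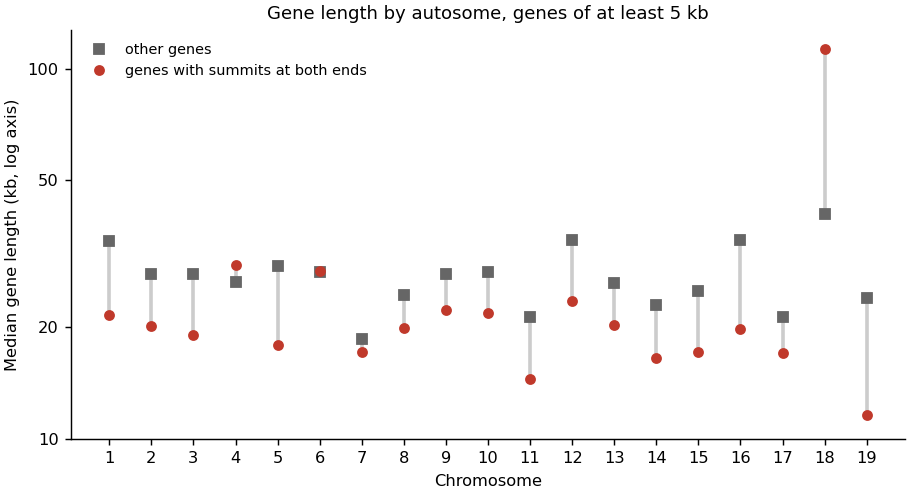
Median gene length in kb (y axis, log scale) on each of the 19 autosomes (x axis) for genes with summits at both ends (red circles) and the other genes of at least 5 kb (grey squares), joined by a line. The red circle is the lower on 16 autosomes, about level on chromosome 6, higher on chromosome 4 and far higher on chromosome 18 (114 against 40.5 kb).

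Chromosome 18 had the largest length ratio, with and without its protocadherin locus. It also had the highest share of genes with both ends occupied (32 of 437, 7.32%), while chromosome 13 had the lowest (12 of 637, 1.88%) and chromosome 11 the most such genes (74). Of the 32 genes, 22 lie in the clustered protocadherin locus, where a series of alternative first exons is spliced to shared last exons. They are 19 of the 21 Pcdhg genes of at least 5 kb and the predicted gene models Gm37013, Gm38666 and Gm38667, which span the Pcdha to Pcdhg clusters. The other 10 genes had a median of 54.3 kb, and the log2 ratio of chromosome 18 fell from 1.49 to 0.42, still the highest of the autosomes, with 2.41% of its genes in the set. Without the 22 genes the mean log2 length ratio over autosomes was -0.40 (exact permutation test, adjusted p = 0.0003).

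In the protocadherin locus a single peak counted as the upper end of all 22 genes. Its summit had a fold of 11.9 and lay 399 to 409 bp inside the annotated end of each gene. At their other ends, which for the Pcdhg genes are the alternative promoters, the 22 genes had distinct summits with a median fold of 8.38 (3.35 to 14.3) at a median of 86.5 bp from the annotated end. Among the Pcdhg genes that peak ranged from 3.35 to a fold of 12.7 at Pcdhgb4, with 12.2 at Pcdhga5, 4.43 at Pcdhga2 and 3.44 at Pcdhga1. Because the genes overlap, the start peak of one is an inner peak of those that begin before it. The summits between the ends therefore numbered from 1 to 23 in the Pcdhg genes, the latter in Pcdhga1, and 63 to 66 in the 3 predicted models. The joined interval held 68 summits in all, with a median fold of 8.01. The 22 genes are thus not 22 independent pairs, and the density and the highest fold of inner summits are given with and without them.

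Between the end windows, 261 of the 648 genes (40.3%) had no CTCF summit, 171 (26.4%) had 1 and 55 (8.49%) had 5 or more. Without the protocadherin locus, 261 of 626 (41.7%) had none and 35 (5.59%) had 5 or more. Over all lengths pooled, an interior with no summit was about as frequent in genes with exactly 1 occupied end (42.3%) and was found in 47.0% of genes with neither. Within each length class it was less frequent in the set than in genes with exactly 1 occupied end. The shares were 68.5% against 73.7% at 5 to 10 kb and 34.5% against 41.5% at 20 to 50 kb. At 100 kb or more they were 4.23% against 6.76%, all with no test. The paired summits themselves were a median of 20.7 kb apart (4.29 to 888 kb), and in 248 genes (38.3%) nothing lay between them. The longest genes with no summit between the ends were Acss3 (an acyl-CoA synthetase gene, 190 kb, folds 6.02 and 9.03) and Rundc3b (133 kb, 4.21 at the start and 7.28 at the end). They were followed by the transcription factor gene Nfatc1 (107 kb, folds 12.2 and 2.85), the kinesin gene Kif24 (74.96 kb, 5.50 at the start and 12.3 at the end) and Sec63, of the protein import machinery of the endoplasmic reticulum (71.0 kb, 3.39 and 5.62). Shank2, a postsynaptic scaffold gene and the longest of the set outside the protocadherin locus at 448 kb, had 20 summits between its ends. The strongest of them had a fold of 15.6, above both its end peaks of 14.8 and 5.91. Ebf1, a transcription factor gene known for B-cell development, had 1 summit of fold 7.68 in 390 kb, with end peaks of 4.74 and 6.65. Bach2 (348 kb) had 8 summits between, Pknox2 (256 kb) had 12 and Col23a1, a collagen gene of 294 kb, had 10, all named after their values were seen.

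Inner summits were denser in these genes than in the others at each length. Pooled over the set there were 4.50 per 100 kb (Poisson 95% interval 4.25 to 4.75, counting error only, overlapping genes counted each), and 3.53 without the protocadherin locus. Genes with exactly 1 occupied end had 2.47 per 100 kb and genes with neither 2.09. At 5 to 10 kb the densities were 7.57, 5.55 and 4.29 per 100 kb for both ends, 1 end and neither end. At 20 to 50 kb they were 4.26, 3.37 and 3.21. At 100 kb or more they were 4.61, 1.85 and 1.51, and the first became 2.49 without the protocadherin locus. As the same list chose the genes, these values have no test.

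**Figure D5:**
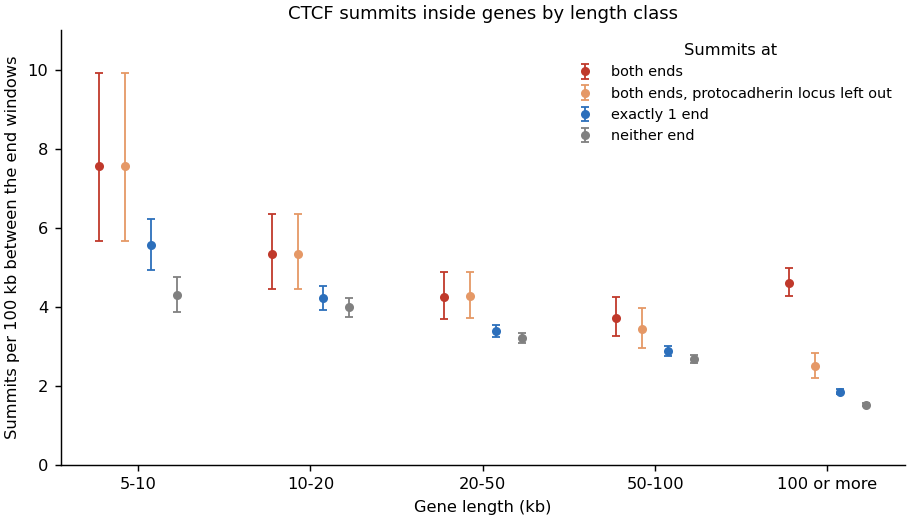
CTCF summits per 100 kb between the end windows (y axis) by gene length in kb (x axis) for genes with summits at both ends with and without the protocadherin locus, at exactly 1 end and at neither end, with bars for the Poisson 95% interval of the summed count. In each class the genes with both ends occupied have the highest value, and the class of 100 kb or more falls from 4.61 to 2.49 when the protocadherin locus is left out.

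A peak at either the start or the end was the strongest CTCF peak in 449 of the 648 genes (69.3%). In 261 of these that outcome was fixed, as they had no inner summit to compare. In the 387 genes with any inner summit, the highest inner fold had a median of 8.88, against 8.61 in other genes. Without the protocadherin locus it was 8.59, so its order against other genes turned. It exceeded both end peaks in 199 genes (51.4%), lay between them in 120 (31.0%) and was below both in 68 (17.6%).

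Few genes of the functional lists were in the set. Of 166 eligible genes on 6 lists, 4 (2.41%) had both ends occupied, against 4.04% of all eligible genes. They were Mga, a MAX partner of a variant Polycomb complex, from the 30 genes of loop architecture (4.60 at the start, 5.99 at the end). Clu, the clusterin gene strongly expressed in Sertoli cells, was the only one of 19 Sertoli, Leydig and peritubular genes (8.94 at the lower end, 5.06 at the upper). The housekeeping list gave 2 of 18, the elongation factor gene Eef2 (5.72 and 9.73) and the glycolytic gene Gpi1 (6.25 and 3.94). None was found among 39 genes of the meiotic axis, breaks and exchange, 30 of spermatogonia and spermatids or 30 of neuronal adhesion and synapse. Exactly 1 end was occupied in 21 (53.8%), 12 (40.0%) and 11 (36.7%) of these, against 40.1% of all eligible genes. The neuronal genes had a median length of 1041 kb. With so few eligible genes per list, a share equal to that of all genes would give about 1 gene in each.

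Gene families, grouped by symbol after the values were seen, ranged more widely around the 4.04% of all eligible genes. Their counts were mostly small and were not tested. Cytosolic ribosomal protein genes gave 4 of 14, namely Rps19, Rpl18, Rpl4 and Rpl3, all under 6 kb. Rps19 had folds of 11.7 at the start and 6.28 at the end, and Rpl4 had 4.43 and 7.74. Hox genes gave 3 of 15 (Hoxc10, Hoxa10 and Hoxb8), in clusters whose CTCF sites are known for separating chromatin domains. Translation factors gave 4 of 47 (8.51%), mitochondrial ribosomal proteins 4 of 53 (7.55%) and ATPase genes 5 of 68 (7.35%). The 346 solute carrier genes gave 14 (4.05%), close to the share of all genes. Zinc-finger Zfp genes gave 6 of 369 (1.63%), potassium channels 1 of 86 (1.16%) and cilia and sperm tail genes 2 of 81 (2.47%). Olfactory and vomeronasal receptors gave 0 of 206, of which 2 (0.971%) had exactly 1 end occupied, against 40.1% of all eligible genes.

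The borders of the rule cut through a continuum. By length, Nat9 (5028 bp), Hoxc10 (5103 bp) and Kcnk15 (5125 bp) were just inside, with folds of 7.94 and 6.62 for Nat9. Tmem253 (4936 bp), Rpl23 and Pebp1 (both 4914 bp) had summits at both ends and were just outside. By distance, Slc27a1 (1000 bp at its farther end), Spock2 (998 bp) and Ctsh (996 bp) were just inside and Cep131 (1003 bp), Osbpl3 (1004 bp) and AU022252 (1005 bp) just outside. Folds at the lower and upper ends were 3.67 and 9.93 for Slc27a1 and 7.81 and 3.64 for Cep131.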

How the data were processed

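CTCF ChIP-seq peaks of mouse testis were read from the 1 merged list deposited for 2 immunoprecipitated and 2 input samples. Testes had been frozen and were fixed in paraformaldehyde on thawing, and a KAPA Hyperprep kit made the libraries, per the labels' protocols. Per the submitters' processing notes, BWA 0.7.12, MACS2 2.2.7 and mm10 were used, in roles and an order not given there. Peak names hold the words bio2 and merged, so which immunoprecipitated samples entered the list was not settled. For each peak the authors deposited a fold enrichment (a ratio), a −log10 p, a −log10 q (lowest 1.308) and a score, which was not used. Differences in mappability or in the cross's 2 genomes can affect which peaks were called, and no per-sample value was used.

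Genes came from RefSeq on GRCm38.p6, whose coordinates are those of mm10, without strand. Strand came from the RefSeq promoter table (12774 of 16044 genes; chromosome 18 was not used there). Genes starting below 3 Mb were left out (48). At an end with more than 1 summit, the one with the highest fold was used. Gene length, close neighbours, promoter CpG and core words were tested by an exact two-sided sign-flip permutation over autosomes, with Benjamini-Hochberg adjustment over these 4 measures. CpG and core words go with the start summit that chose the genes, so for them only the test against genes with a start summit alone is given. Computation was in Python 3.11.15 with numpy 2.4.6 and pandas 2.3.3. The test was checked on simulated data. Shares have exact Clopper-Pearson 95% intervals and densities exact Poisson intervals, for counting error only.

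The members, lists and tests were chosen with earlier results of these data known. Named genes were the 10 strongest at the weaker end, the 5 longest, the 5 with most and the 5 longest with no summits between the ends, list members (at most 3 for lists other than the loop and meiotic ones) and those nearest each threshold. Some genes that fall under these choices are not reported here. Windows, peak thresholds, the length minimum and the choice of summit were varied.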

Additional observations from a re-analysis of the deposited data

Results flagged for a closer look

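Chromosome X was outside the comparisons above. There, 2 of 682 coding genes of at least 5 kb had a summit within 1 kb of both ends (0.293%, exact 95% interval 0.0355 to 1.06), against 4.04% of autosomal genes. Uxt, a prefoldin-like gene of 10353 bp, had folds of 3.33 and 3.40 at its lower and upper ends, and Elf4, an ETS transcription factor gene of 52084 bp, had 19.7 and 9.69. Of all 51871 peaks, 50267 lay on the autosomes, so few peaks of any kind lay elsewhere. The share of X-linked genes with 1 occupied end is not given. The count of 2 genes has no control list and was not tested.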

How the results depend on the processing

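Of 39 alternatives to the main results, 26 gave the same direction and side of the threshold, a value within its error or, for the count of genes, one within 1.5 times. Some of the 26 could not differ. Leaving out the protocadherin locus removed no gene from the CpG, core word or start against end results, as its genes had no strand there. The count of 648 genes became 277 (1.73% of eligible genes) with a 500 bp window and 1770 (11%) with 2.5 kb. It was 881 when any base of a peak within 1 kb counted and 521 for genes of at least 10 kb. It became 267 (1.66%) with peaks of fold at least 5 and 142 (0.885%) with only the more significant peaks by the list's median q. The log2 length ratio was -0.27 and -0.42 under those 2 peak thresholds and no longer passed (adjusted p 0.139 and 0.0902, exact permutation test), with fewer genes in the set. Against genes with a start summit only, the CpG difference was -0.029 and the core word difference 1.93 points. Inner summits per 100 kb were 4.05 with fold at least 5. Chosen after seeing the data, leaving out the protocadherin locus gave 3.53 and 1 gene per locus 3.67. Likewise added, the share of genes with the higher fold at the start was 42.8% with fold at least 5 and 40.4% with the −log10 q threshold, against 35.3%. Of the 54 named genes, 22 stayed in the set at 500 bp, 39 with fold at least 5 and 35 with the q threshold. Among those that stayed, 188 values of the weaker end were kept and 16 moved, among them Pkm to 3.09 (500 bp or the nearest summit) and Nfatc1 to 6.53 (2.5 kb). Values kept with fold at least 5 were fixed in advance, since the highest summit at each end was used. For the same reason a 2.5 kb window could only keep or raise a value.

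Leaving out a replicate could not be done on a merged list. No paired analysis was possible because 1 merged peak list holds no value per sample. Depth and the spread between mice are unknown, and the strand was known for 504 of 648 genes.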
